A study of Mus musculus with 2 samples.

Results

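5-Hydroxymethylcytosine (5-hmC) was examined at 5 genes of epidermal adhesion, namely Dst, Plec, Eppk1, Cd151 and Lama5, in skin from mice treated with imiquimod or with vehicle. The authors' list of regions that differed between the libraries was searched for regions assigned to exactly 1 of these genes, which gave 6 of the 364 listed regions, 2 for Eppk1 and 1 for each other gene. Both libraries came from the epidermis of C57BL/6J mice aged 6 weeks, which the column headers mark as wild type (WT), and 1 library was made per condition. The treated mice received imiquimod, a Toll-like receptor 7 agonist that gives a psoriasis-like dermatitis on mouse skin, at 3.125 mg per day in a 5% cream for 6 days, and the control mice received Vaseline. Dispase at 0.2% is recorded for both libraries. How many mice were pooled per library was not stated in the sources used. Labels of the libraries were matched to the treatments by the words control and treated, on which every direction below rests.

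Basal keratinocytes are held to the basement membrane by hemidesmosomes. In these, the plakins plectin and BPAG1e link keratin filaments on the inner side to integrin alpha6 beta4, and laminins of the basement membrane are the ligands of that integrin outside the cell. The tetraspanin CD151 associates with laminin-binding integrins. 5-hmC is made from 5-methylcytosine by TET enzymes, mostly at CG dinucleotides, and is often found in the bodies of genes. In hMeDIP-seq, sheared DNA that carries it is captured with an antibody and sequenced, so that a pileup of tags gives the relative 5-hmC signal of a region, without resolving single bases.

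Bases of the regions over which an exon lies are shown here, since these are the stretches of DNA in which the tags were counted. They were read from the GENCODE M21 transcripts (GRCm38, the assembly named mm10) on the strand of the gene, 5′ to 3′, and capitals mark the CG dinucleotides, the usual place of 5-hmC. The Dst stretch (chr1:34181091-34181390, plus strand) crosses from an intron into the last exon of the epidermal transcript. The Eppk1 stretch (chr15:76108817-76109116, minus strand) lies wholly in coding sequence. The Lama5 stretches are exon 67 (chr2:180179606-180179754) and exon 68 (chr2:180179252-180179528), both on the minus strand. The last stretch is the coding part of exon 2 of Cracr2b (chr7:141463411-141463572, plus strand), the gene in which the region assigned to Cd151 lies.
Dst, middle of the region: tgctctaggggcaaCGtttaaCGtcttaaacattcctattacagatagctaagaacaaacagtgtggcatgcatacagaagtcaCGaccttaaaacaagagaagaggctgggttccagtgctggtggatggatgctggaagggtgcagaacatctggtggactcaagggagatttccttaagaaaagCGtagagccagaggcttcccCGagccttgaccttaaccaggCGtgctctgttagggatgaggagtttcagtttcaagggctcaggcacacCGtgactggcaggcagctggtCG
Eppk1, middle of the exon region: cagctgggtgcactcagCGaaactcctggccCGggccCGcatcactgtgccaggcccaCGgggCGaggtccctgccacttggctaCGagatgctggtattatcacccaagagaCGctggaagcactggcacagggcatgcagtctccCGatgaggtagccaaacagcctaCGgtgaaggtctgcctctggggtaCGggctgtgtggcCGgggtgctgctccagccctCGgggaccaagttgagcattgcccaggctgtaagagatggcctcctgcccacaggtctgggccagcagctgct
Lama5, exon 67: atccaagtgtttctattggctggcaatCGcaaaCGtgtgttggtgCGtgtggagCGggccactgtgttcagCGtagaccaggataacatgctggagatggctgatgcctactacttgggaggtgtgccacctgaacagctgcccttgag
Lama5, exon 68: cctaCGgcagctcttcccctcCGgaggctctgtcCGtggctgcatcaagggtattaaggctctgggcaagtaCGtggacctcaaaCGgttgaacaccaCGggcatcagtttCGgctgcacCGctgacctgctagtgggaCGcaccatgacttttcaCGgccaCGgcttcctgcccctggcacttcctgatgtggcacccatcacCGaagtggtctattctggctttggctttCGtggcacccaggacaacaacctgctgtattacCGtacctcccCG
Cracr2b, coding part of exon 2: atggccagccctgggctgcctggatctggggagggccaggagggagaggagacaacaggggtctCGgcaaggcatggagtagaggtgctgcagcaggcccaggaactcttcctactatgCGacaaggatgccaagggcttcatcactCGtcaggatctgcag
The 300 bases from Dst hold 8 CG dinucleotides and the 300 bases from Eppk1 hold 12. Exons 67 and 68 of Lama5 hold 5 and 15, and the 162 coding bases of Cracr2b hold 3.

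All 6 regions had a lower 5-hmC pileup in the imiquimod library than in the Vaseline library. The average pileup lay between 18.2 and 23.7 tags in Vaseline and between 6.95 and 10.5 in imiquimod epidermis. Over all 271 lower regions of the list it lay between 12.4 and 28.6 tags in Vaseline and between 4.55 and 13.7 in imiquimod. The imiquimod signal was 38.3% to 49.6% of the Vaseline signal. Of all listed regions, 74.5% were lower in imiquimod. The regions of the list had been selected on these same average pileups, with a difference of about 2-fold and about 50 tags in the higher library, so their direction and size are a description and carry no test. None of the 6 reached 3-fold (1.92% of all listed regions did so on the lower side) or 100 tags (2.75%). None stayed 2-fold lower when the averages, summed over the listed regions, were made equal between the libraries (3.02%). The list was selected on this ratio and holds mostly lower regions, so equal sums do not measure library depth. With 1 library per condition there is no replicate check. Intervals given with the folds are exact 95% intervals of the ratio of tag numbers, which treat tags as independent and cover counting error only. PCR reads need not be independent molecules, and the regions were selected on this ratio, so a coverage of 95% need not hold for them.

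**Figure D1:**
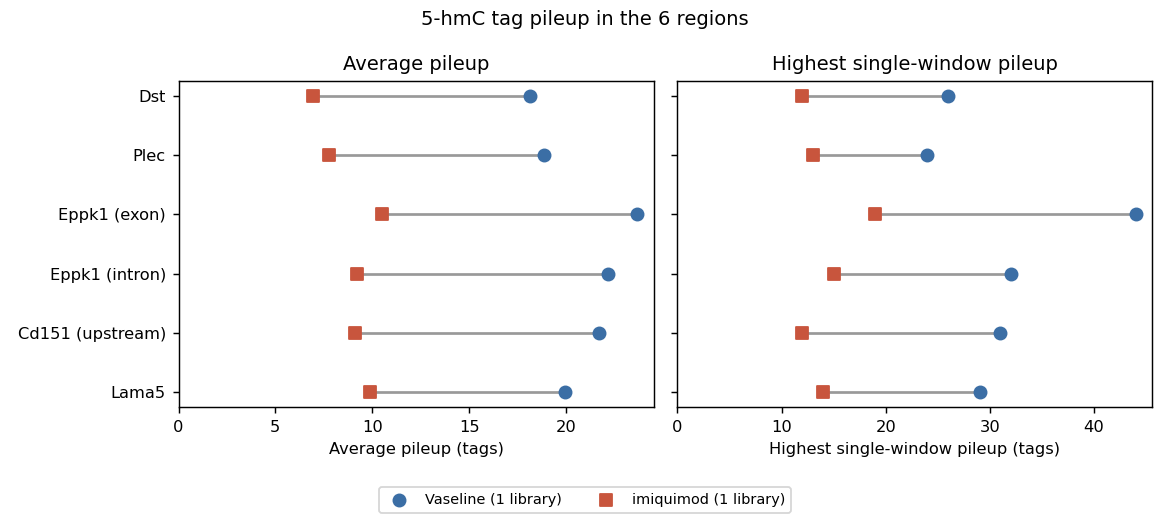
Average tag pileup (left) and highest pileup of a single window (right), in tags, of the 6 regions in the Vaseline library (circles) and the imiquimod library (squares), 1 library each. Each imiquimod value lies to the left of the Vaseline value of its region, and the Eppk1 exon region has the highest Vaseline window, at 44 tags.

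Dst encodes dystonin, a plakin of which the epidermal form, BPAG1e or BP230, is the hemidesmosome plaque protein and an autoantigen of bullous pemphigoid. The region (chr1:34180914-34181565) is 651 bp long. The Vaseline library had an average of 18.2 tags there and the imiquimod library 6.95, and its highest window held 26 and 12 tags. The average was 2.61-fold lower in imiquimod (1.56 to 4.68), from an estimated 52.7 tags to 20.2. This was the greatest difference of the 6 regions and rank 29 among the 271 lower regions, although the intervals of all 6 overlapped.

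The Dst region lies in the part of the gene that is specific to the epidermal transcript. The deposited distance, 169414 bp, matches the start of the long transcripts Dst-201 and Dst-203. From the internal start of Dst-213, the transcript of BPAG1e, the region was 20585 bp away, within a transcript that spans 23575 bp. Its first 220 bases are intron and its other 431 bases are the beginning of exon 24, the last exon of Dst-213, in codons 2007 to 2150 of 2639. The region begins 416 bp after exon 23 of Dst-213, of 2703 bp, which also occurs in 1 protein-coding transcript alone. Exon 24, of 2770 bp, was present in 1 of 14 protein-coding Dst transcripts and in 1 retained-intron fragment. In the 5 other basic transcripts that run across the region, it falls in an intron of 9220 bp. BPAG1e binds keratin filaments with the carboxy-terminal end that its last exon encodes. Over its 651 bp the region has 15 CG dinucleotides, or 2.30 per 100 bp, close to the 2.42 per 100 bp of the whole exon.

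**Figure D2:**
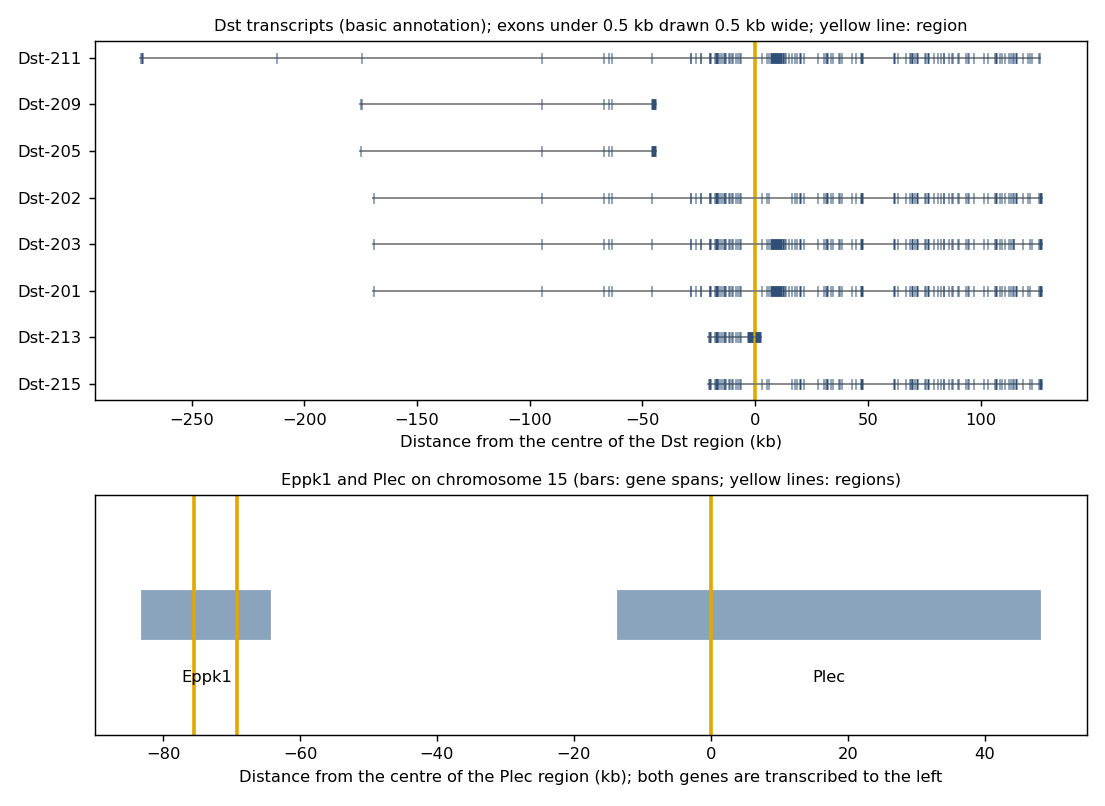
Top: basic GENCODE transcripts of Dst against the distance in kb from the centre of its region (yellow line), with exons as dark marks. The line meets an exon in Dst-213 and an intron in the 5 other transcripts that cross it. Bottom: spans of Eppk1 and Plec (bars) and their 3 regions (yellow lines) against the distance in kb from the centre of the Plec region.

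Plec encodes plectin, the plakin that binds integrin beta4 and keratin filaments in hemidesmosomes. Its region (chr15:76184129-76184879), at 750 bp the longest of the 6, averaged 18.9 tags in Vaseline and 7.78 in imiquimod, a 2.42-fold difference (1.51 to 3.99). The highest window held 24 tags in Vaseline and 13 in imiquimod, a difference of 1.85-fold, which made Plec the only one of the 6 regions under 2-fold by this measure. The profile in Vaseline was the flattest of the 6: the highest window was 1.27 times the average, rank 268 of 271 lower regions. By this measure the regions at Dst, the Eppk1 intron, Cd151 and Lama5 ranked 218 to 233, and the Eppk1 exon region ranked 43.

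Plectin is made in several forms that differ in their first exon. The Plec region lay downstream of the starts of all 13 basic transcripts, 10831 bp from the nearest, Plec-201, and 46499 bp from the farthest, Plec-209. It fell inside an intron of 1205 bp that all 13 share, counted as intron 25, 26 or 27 depending on the transcript. The region is thus common to the forms of plectin and touches no exon of any.

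Eppk1, the neighbour of Plec on chromosome 15, encodes epiplakin, a keratin-binding plakin built of plakin repeats. Its exon region (chr15:76108671-76109260, 589 bp) averaged 23.7 tags in Vaseline and 10.5 in imiquimod, a 2.25-fold difference (1.40 to 3.59). Its highest window held 44 and 19 tags. In Vaseline this was the most sharply peaked of the 6 regions, with the highest window 1.86 times the average, and the highest window ranked 15 among the 271 lower regions. The region lies entirely within coding exon 2, which is 11245 bp long and holds the whole coding sequence, in codons 1140 to 1336 of 3458.

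Because epiplakin is repetitive, the exon region was searched for words of 50 bases that occur more than once. Of its 540 words, 0 occurred a second time in the Eppk1 transcript and 0 occurred in a transcript of another gene, on either strand. The same search gave 0 words shared with other genes for the Dst region, the region assigned to Cd151 and both Lama5 exons. Intergenic and intronic copies were not searched, and copies missing from the annotated transcripts could not be found. The Eppk1 exon region holds 22 CG dinucleotides, 3.74 per 100 bp against 2.88 over exon 2. In 19 windows of the same length laid end to end along exon 2 the number ranged from 4 to 31, with a median of 17.

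The other Eppk1 region (chr15:76115042-76115687, 645 bp) lies in the single intron of the gene, 4508 bp from its start. It averaged 22.2 tags in Vaseline and 9.20 in imiquimod, a 2.41-fold difference (1.54 to 4.05), and the highest window held 32 and 15 tags. The Eppk1 regions, 5782 bp apart, were close to each other in each library (23.7 and 22.2 tags in Vaseline, 10.5 and 9.20 in imiquimod). The table assigns the intron region also to BC024139, downstream of which it lies.

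The Plec region lay 68442 bp from the Eppk1 intron region. The authors numbered the merged regions along each chromosome, and the numbers leave 2 regions between both Eppk1 regions and 19 between the Eppk1 intron and Plec, none of which is listed as differing. Within 1 Mb of the Plec and Eppk1 regions 2 further regions were listed, both lower in imiquimod: 2.07-fold at Spatc1, Smpd5 and Oplah, and 2.21-fold at 2810039B14Rik and Top1mt. Near Dst, 2 lower regions lay 510.9 kb and 628.4 kb away, with differences of 2.12-fold and 2.19-fold. No other listed region lay within 1 Mb of the Lama5 region or of the region assigned to Cd151.

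**Figure D3:**
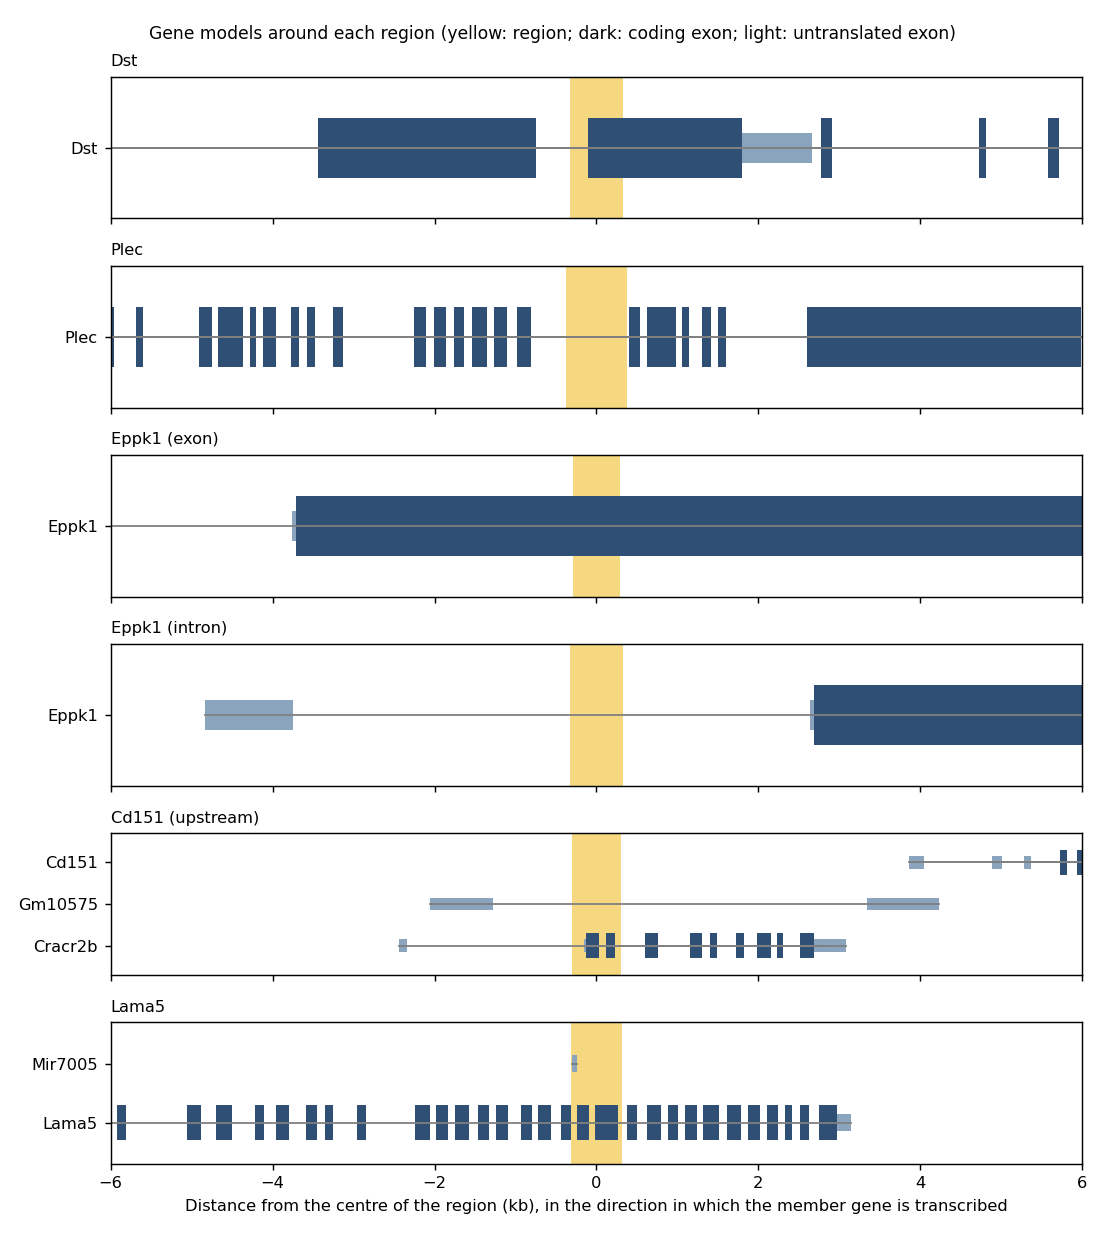
Gene models of the basic annotation within 6 kb of the centre of each region, against the distance in kb in the direction of transcription of the member gene. Yellow bands are the regions, dark boxes coding exons and light boxes untranslated exons. The Dst, Eppk1 exon and Lama5 regions overlap coding exon of their gene, the Plec and Eppk1 intron regions lie between exons, and the region assigned to Cd151 lies over exons of Cracr2b.

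Cd151 encodes the tetraspanin that associates with integrins alpha3 beta1 and alpha6 beta4 in basal keratinocytes. Its region (chr7:141463233-141463836, 603 bp) averaged 21.7 tags in Vaseline and 9.11 in imiquimod, a 2.38-fold difference (1.43 to 3.87). The highest window held 31 and 12 tags, at 2.58-fold the greatest difference of the 6 regions by this measure. It was also the only one of the 6 to which the authors assigned a promoter, with a count of 2 that names no gene. Among listed regions with an assigned gene, 68 of 243 lower and 15 of 59 higher ones had a promoter. An assigned promoter was thus common in the list, and no difference of the 6 regions from the others was tested.

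The region does not lie in Cd151. The deposited distance places its centre 3828 bp upstream of the gene, and the table assigns it also to Pnpla2, Efcab4a and Polr2l. Efcab4a, named Cracr2b in the annotation, is the gene that the region overlaps: it covers 301 bases of exons 2 and 3 of Cracr2b-201, of which 274 are coding, from codon 1 to codon 92 of 394. Cracr2b encodes a calcium-binding regulator of store-operated calcium entry. An antisense transcript, Gm10575, also runs across the region. Whether the 5-hmC signal concerns Cd151, Cracr2b or another neighbour was not tested. With 10 CG dinucleotides in 603 bp, 1.66 per 100 bp, this region was the poorest in CG of the 3 that could be read in full.

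Lama5 encodes the laminin alpha5 chain, part of basement membrane laminins that bind integrins alpha3 beta1 and alpha6 beta1. Its region (chr2:180179198-180179834, 636 bp) averaged 19.95 tags in Vaseline and 9.90 in imiquimod, and its highest window held 29 and 14 tags. The difference of 2.02-fold (1.27 to 3.32) was the smallest of the 6, rank 255 of 271, and stood just inside the limit of the list. Regions that missed the limit are not listed, so values just outside it are not known. Raising all imiquimod values by a factor of 1.01 would take this region under 2-fold, against 1.31 for Dst.

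The Lama5 region lay near the 3′ end, 46025 bp from the start of a transcript that spans 49487 bp. It covers all of exons 67 and 68 of 79, with 426 coding bases in codons 3031 to 3172 of 3718. This is the carboxy-terminal part of the chain, where laminin alpha chains carry the globular LG domains that bind integrins. A processed transcript outside the basic set, Lama5-203, starts inside the region. The region also contains the hairpin of the microRNA Mir7005 (chr2:180179755-180179823, minus strand), which ends on the base before exon 67. RefSeq gives its mature arms as follows, with the seed, bases 2 to 8, in capitals.
mmu-miR-7005-5p: cCUGGGGAugggaggaccagca
mmu-miR-7005-3p: cUGUGCCUgcuacccaucccuugca
Exon 68 is the denser in CG of both Lama5 exons, with 5.42 per 100 bp against 3.36 in exon 67 and 3.88 over the whole transcript. The neighbouring proteasome gene Adrm1 is assigned to the same region, which lies downstream of it.

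**Figure D4:**
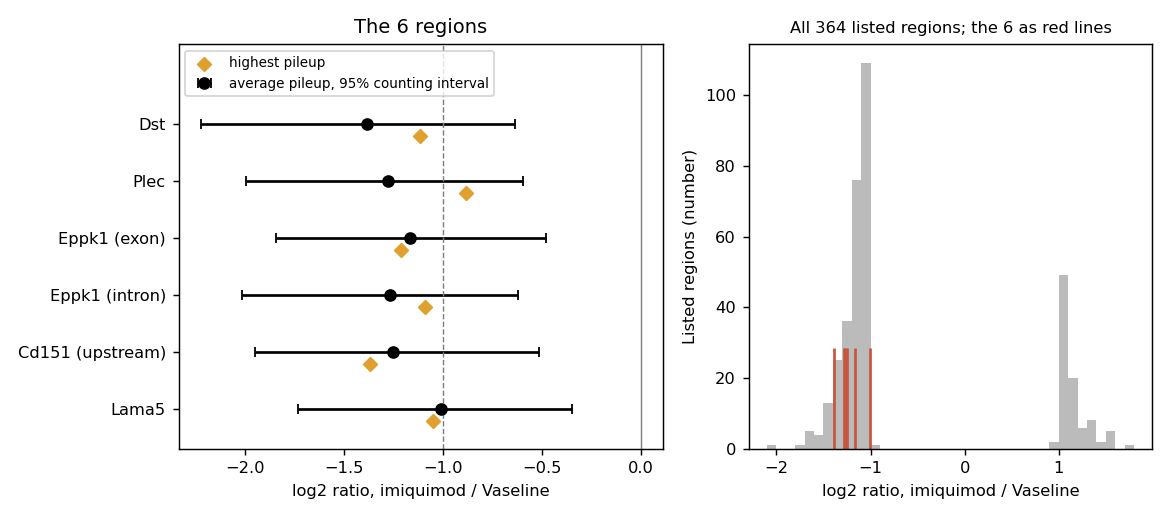
Left: log2 ratio of imiquimod over Vaseline for the 6 regions by average pileup (circles, with 95% counting intervals) and by highest pileup (diamonds); the dashed line marks a 2-fold difference. Right: number of listed regions by log2 ratio of the average, with the 6 regions as red lines. The 6 values run from -1.38 for Dst to -1.01 for Lama5, inside the bulk of the lower regions.

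Beside all lower regions, the 6 lay within the range of each measure. Their median difference was 2.40-fold, against 2.18-fold for the 271 lower regions, and their median length was 640.5 bp against 688 bp. The median Vaseline average was 20.8 tags against 19.3, and the median imiquimod average was 9.16 against 8.63. By highest pileup 5 of the 6 regions were 2-fold lower, beside 55.2% of all listed regions and 74.2% of the lower ones. The authors called an enriched interval in all 6 regions for Vaseline and in 0 for imiquimod, from the same reads. Among the 271 lower regions, 269 had such a call in Vaseline and 16 in imiquimod.

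The 6 regions were chosen through an assigned gene, so they are set beside the 243 lower and 59 higher regions that also have one. A coding exon of any gene was overlapped by 4 of the 6 regions, those at Dst, Eppk1, Cd151 and Lama5. The same held for 51.0% of those lower regions (exact 95% Clopper-Pearson interval 44.6 to 57.5) and for 6.78% of those higher regions (1.88 to 16.5). Inside an assigned gene lay all 6, the region assigned to Cd151 through Efcab4a, and 92.6% of those lower regions. A CpG island was assigned to 0 of the 6 (exact 95% interval up to 45.9%) and to 27 of those lower regions (11.1%). With 6 regions these are counts only, and no difference from the other lower regions was tested.

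**Figure D5:**
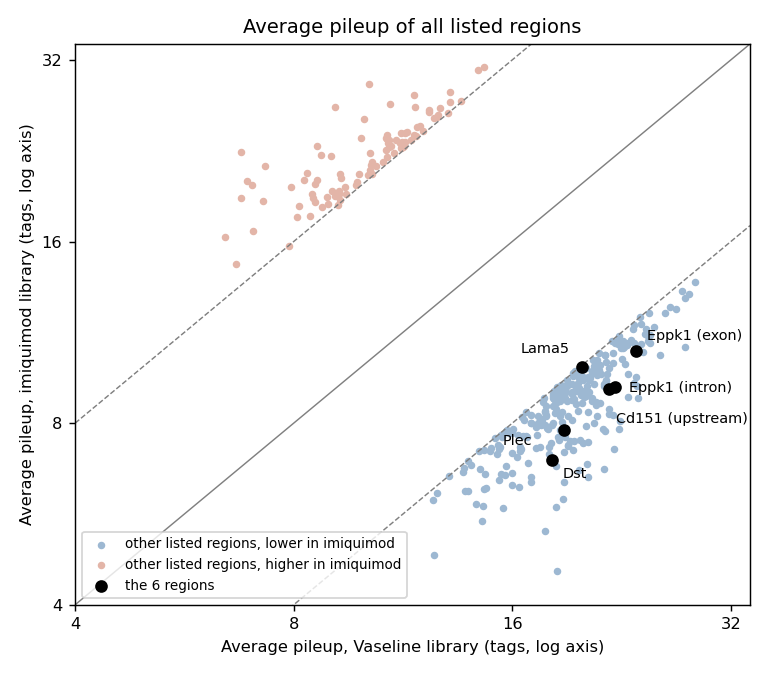
Average pileup of the 364 listed regions in the Vaseline library (x axis) and the imiquimod library (y axis), in tags on log axes. The solid line marks equal values and the dashed lines 2-fold differences. The 6 regions (black) lie among the other lower regions, with Lama5 on the dashed line and Dst the farthest below it.

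The listed regions with the most similar pair of averages were found by the distance between log2 averages over the 2 libraries. Nearest to Dst was a region of Rcan1 (18.1 and 6.95 tags in Vaseline and imiquimod), nearest to Plec one of Ctdspl (18.6 and 7.79), and nearest to Lama5 one of Sipa1l2 (20.1 and 9.83). The Eppk1 exon region was nearest to one of Bsn (24.2 and 10.5), the Eppk1 intron region to one of Scnm1, Lysmd1 and Tnfaip8l2 (22.2 and 9.16), and the region assigned to Cd151 to one of Il4ra (21.4 and 9.24). Among the 3 nearest of each, the Eppk1 intron region and the region assigned to Cd151 named each other.

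Lists of related genes were then searched for any listed region. As a background, 1.42% of 21875 protein-coding genes in the annotation had a lower region and 0.26% a higher one. Of 11 hemidesmosome genes 3 had a lower region, namely Dst, Plec and Cd151, of 7 plakin genes 3, namely Dst, Plec and Eppk1, and of 11 laminin chains 1, Lama5. These counts consist of the genes already described, chosen with their values known, and 0 of the other 8 hemidesmosome and 0 of the other 4 plakin genes had a region. Among those with none were the genes of integrins alpha6 and beta4 and Col17a1, and the other laminin chains had none either. Neither had any of 22 other basement membrane genes, 14 desmosome genes or 12 tetraspanin genes. Over these lists and one of 13 focal adhesion and laminin receptor genes, 88 genes in all, 6 had a lower and 0 a higher region. Without the 5 members, 1 of 83 had a lower region (1.2%), near the share of all protein-coding genes. Absence from the list does not show that 5-hmC at a gene was alike in both libraries.

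The sixth gene was Bcam, which encodes the Lutheran antigen, a cell surface receptor for the laminin alpha5 chain. Its region (chr7:19766470-19767012, 542 bp) overlaps exons 3 and 4 of the 15 exons of Bcam-201. It averaged 23.8 tags in Vaseline and 9.24 in imiquimod, a 2.57-fold difference (1.59 to 4.52), and the highest window held 37 and 14 tags. Bcam is the 1 gene with a lower region among the 83 list genes that are not members, a share near that of all protein-coding genes. A link between the Bcam and Lama5 regions was not tested.

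Markers of other cells that an epidermal sheet can hold had no listed region: 0 of 28 genes of melanocytes, fibroblasts, endothelium, T cells and myeloid cells. With 1.42% of protein-coding genes having a lower region and 0.26% a higher one, a count of 0 among so few says little. Of 6 keratinocyte markers, Krt1 alone had one, higher in imiquimod, with averages of 8.13 tags in Vaseline and 18.3 in imiquimod. A list of regions that differ cannot show which cells were present, so the labelled tissue could not be checked against its markers. In bulk epidermis, less 5-hmC per cell and fewer cells of a type that carries it cannot be told apart.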

How the data were processed

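Values came from a deposited table of regions with coordinates of mm10. Per the submitters' processing notes, which give no versions, CASAVA, MACS2 and mm10 were used. No source used here states the aligner, an input control or how libraries were scaled. For each library the authors deposited 2 kinds of signal, the mean tag coverage of a region and its highest window. The authors' deposited tag score equals the larger average times length over 224, and their deposited log2 ratio that of the averages, in all 364 regions (tolerance 1e-06), so tags were computed here as average times length over 224. Per the file headers, regions were merged over 4 libraries; 6 columns of values of 2 libraries outside this series were not used. Lengths equal end minus start, and starts were taken to count from 0.

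Members and lists were chosen with earlier results of these data known. Named are the members, genes of the lists with a listed region, the 3 nearest regions by pair of log2 averages (the first of each is given) and listed regions within 1 Mb. Intervals are Clopper-Pearson intervals at 95%, and there is no test between conditions. Their coverage was checked only on simulated independent tags, without the selection on the ratio that the listed regions passed. Sequencing depth per library is unknown, and every region held at least 49.5 tags in the higher library. Positions were taken from GENCODE M21. Alternatives were the highest pileup, equal sums over the listed regions, a pseudocount of 10, minima of 3-fold and 100 tags, and other rules for assigning a region. Python 3.11.15, numpy 2.4.6, pandas 2.3.3, SciPy 1.17.1 and matplotlib 3.10.9 were used.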

Additional observations from a re-analysis of the deposited data

How the results depend on the processing

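No paired analysis was possible because each condition has 1 library, and leaving out a replicate was not possible for the same reason. The log2 ratio stayed negative in all 6 regions, and inside its interval, with the highest pileup (-1.37 to -0.88). The same held with equal summed averages over the listed regions, for which imiquimod values were multiplied by 1.40 (-0.90 to -0.52). It also held with a pseudocount of 10 (-0.74 to -0.59). By construction equal sums and the pseudocount could not change a sign here. Equal sums rest on regions selected on this ratio and do not measure library depth. The intervals cover counting error only, so a value inside one does not measure how far a setting matters. The median, -1.26, became -1.10 with the highest pileup, -0.77 with equal sums and -0.72 with the pseudocount. At 3-fold 0 of the 6 regions remained, beside 1.92% of all listed regions. At 100 tags 0 remained, beside 2.75%, and 0 were 2-fold lower after equal sums, beside 3.02%. By construction these limits can only lower the count, whereas a count of 0 follows from the values of the 6 regions. Regions assigned to a member and to no other gene numbered 3, at Dst, Plec and Eppk1, and regions overlapping the annotated body of a member numbered 5, all but the one assigned to Cd151. With the longest coding transcript of each gene 3 in place of 4 regions overlapped an exon, since the exon at Dst belongs to the short epidermal transcript. Genes of the lists with a lower region numbered 6, and 5 with regions inside the gene. No setting gave a higher region. At 20.2 to 28.1 imiquimod tags per region the intervals extended a median of 0.70 to each side on the log2 scale.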
